A study of Bos taurus and other sequences with 9 samples.

Results

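Transfer RNAs (tRNAs) for serine (Ser) and leucine (Leu) carry a long variable arm, an extra stem and loop that most other tRNAs have only as a few bases. The members described here were all tRNA loci of the small non-coding RNA (small ncRNA) table whose name held Ser or Leu before the anticodon, in all 9 samples. They numbered 62 loci (27 Ser and 35 Leu) of 530 tRNA loci and 1361 small ncRNA loci. By anticodon, the 3 bases that read the codon, the Ser loci were 10 SerAGA, 4 SerCGA, 8 SerGCT and 5 SerTGA, and the Leu loci were 12 LeuAAG, 6 LeuCAA, 9 LeuCAG, 5 LeuTAA and 3 LeuTAG.

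RNA was sequenced from extracellular vesicle (EV) isolates of culture media that had held no cells. FBS-1 (Sigma-Aldrich) and FBS-2 (Gibco) were media with regular fetal bovine serum. UC-dFBS-1 and UC-dFBS-2 held the same sera after EV depletion by ultracentrifugation, and UF-dFBS-1 and UF-dFBS-2 the flow-through of those sera from a centrifugal filter. SBI-dFBS-1 and SBI-dFBS-2 were lots of a commercially EV-depleted serum from System Biosciences, and these 8 media all had a DMEM/F12 base and pen-strep. StemPRO, a defined serum- and xeno-free medium for mesenchymal stem cells, was also supplied by Gibco. It was 1 sample and had no replicate. Gibco samples and preparations below are those made from Gibco serum and leave out StemPRO. The study lists the Sigma and Gibco sera under the same catalogue number and different lots, so supplier and lot cannot be told apart, and nothing states that the samples of a medium were separate isolations beyond their different sera or lots. The serum is bovine, but reads were mapped to human tRNA loci (GRCh37), so a locus here is a human position that reads matched, and each depletion was represented by 1 sample per serum.

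tRNAs bring amino acids to the ribosome, and Ser and Leu are each read by 6 codons and hence by several anticodons. Enzymes that charge tRNA-Ser recognise the long variable arm rather than the anticodon. Cells and body fluids also hold tRNA fragments made by cleavage in the anticodon loop or elsewhere, and such fragments are common in serum and in EV isolates. The counts do not tell fragments from whole tRNAs, and in bulk isolates fewer vesicles and less RNA per vesicle cannot be told apart. The members were longer than other tRNA genes, with a median length of 82 nucleotides for Ser and 83 for Leu against 73 for the other 468 tRNA loci. Of the members, 59 of 62 were 80 nucleotides or longer, against 28 of the other 468. LeuCAA loci, most of which carry an intron in the gene, had a median of 106 nucleotides. Of these, 5 of 6 were 100 nucleotides or longer, and tRNA66-LeuCAA had 84. Since Ser and Leu loci had nearly the same length, their levels were compared without division by length.

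The smallest library was StemPRO with 6679 counts in total, followed by UF-dFBS-2 with 82513, and the largest was UF-dFBS-1 with 6867736. Levels are deposited counts divided by a spike-in factor of each sample (spike-in normalized counts), from 3.78 in SBI-dFBS-2 to 108 in StemPRO, so that 3 counts, the limit that a count of 0 allows, came to 0.0278 in StemPRO and 0.794 in SBI-dFBS-2. Intervals cover counting error only. Counts on the members were 7958 for Sigma FBS and 226 for Gibco FBS, then 3590 and 109 for UC-dFBS and 5235 and 145 for UF-dFBS of these sera. The SBI-dFBS lots had 1429 and 4098 member counts and StemPRO 439. The 3 Gibco serum samples therefore held fewer member counts than StemPRO did, although their tRNA totals were larger.

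Ser was above Leu in each of the 9 samples, and FBS-1 had the most of both. In Sigma serum the Ser level was 1339 before depletion, 520 after ultracentrifugation and 90.3 after ultrafiltration, and in Gibco serum it was 18.0, 8.94 and 3.16. The SBI-dFBS lots had Ser levels of 95.5 and 858, and StemPRO 2.52. The Leu level in Sigma serum was 304, 29.4 and 4.44 in the same order, and in Gibco serum 12.3, 7.04 and 2.87, with 62.5 and 227 for the SBI-dFBS lots and 1.55 for StemPRO. Every Gibco preparation was below its Sigma counterpart for both isotypes, and among the serum media UF-dFBS-2 was the lowest for both. Among 21 tRNA isotypes ordered by their counts in a sample, Ser stood between the 8th and the 12th place and Leu between the 10th and the 14th.

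**Figure D1:**
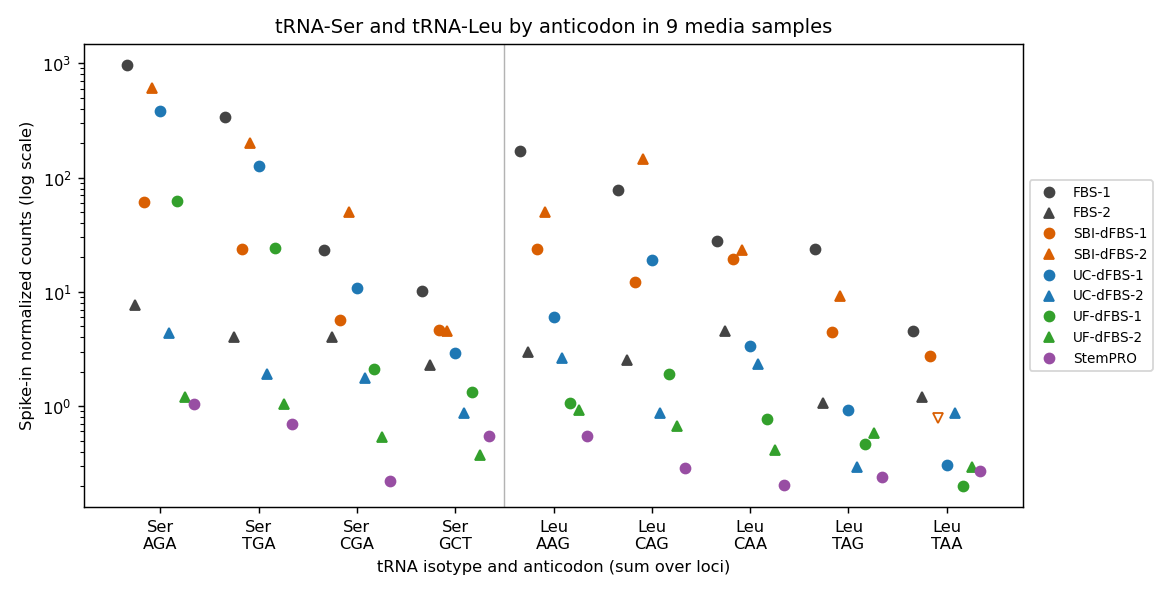
Spike-in normalized counts (vertical log axis) of each Ser and Leu anticodon, summed over its loci, in the 9 samples; circles are replicate 1 (and StemPRO), triangles replicate 2, and the open triangle pointing down marks a count of 0 drawn at the limit of 3 counts (LeuTAA in SBI-dFBS-2). SerAGA ranged from 964 in FBS-1 to 1.21 in UF-dFBS-2 among serum media, and the Gibco samples (black, blue and green triangles) lay below the Sigma samples of the same medium for all anticodons but LeuTAA in UC-dFBS and UF-dFBS and LeuTAG in UF-dFBS.

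SerAGA and SerTGA made up most of the Ser signal in every sample. The SerAGA level in Sigma serum was 964 before depletion, 380 after ultracentrifugation and 62.7 after ultrafiltration, against 7.65, 4.40 and 1.21 in Gibco serum. The SBI-dFBS lots had SerAGA levels of 61.7 and 602, and StemPRO 1.05. SerTGA followed the same order of samples, from 341 in FBS-1 to 0.703 in StemPRO. Together these anticodons took 97.5%, 97.4% and 96.2% of Ser counts in the Sigma FBS, UC-dFBS and UF-dFBS, against 64.9%, 70.5% and 71.1% in the Gibco preparations. The SBI-dFBS samples stood at 89.2% and 93.7% and StemPRO at 69.5%, so the Gibco serum preparations lay near StemPRO and the Sigma preparations apart from both. StemPRO and the Gibco serum share a supplier, and a link to the supplier was not tested. SerCGA, at 49.5, was highest in SBI-dFBS-2, followed by FBS-1 at 23.1. SerGCT, which reads the other codon box of Ser, was at 10.1 in FBS-1 and had the narrowest range of the Ser anticodons: its highest serum-medium level was 27.0 times its lowest, against 799 times for SerAGA.

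Among Leu anticodons LeuAAG led in FBS-1 and LeuCAG in SBI-dFBS-2. The LeuAAG level in Sigma serum was 171 before depletion, 5.97 after ultracentrifugation and 1.07 after ultrafiltration, against 2.95, 2.64 and 0.916 in Gibco serum, 23.9 and 49.8 in the SBI-dFBS lots and 0.546 in StemPRO. For LeuCAG the Sigma levels were 77.2, 18.8 and 1.92 in that order and the Gibco levels 2.55, 0.879 and 0.666, with 12.2 and 145 for the SBI-dFBS lots and 0.287 for StemPRO. The ratio of LeuAAG to LeuCAG counts was 2.21 in Sigma FBS but 0.317 after ultracentrifugation and 0.557 after ultrafiltration of that serum, and 1.96 and 0.343 in the SBI-dFBS lots. LeuCAA ran from 28.1 in FBS-1 to 0.204 in StemPRO, and LeuTAG from 23.5 in FBS-1 to 0.241 in StemPRO. LeuTAA was low throughout, at 4.54 in FBS-1 and a count of 0 in SBI-dFBS-2, which allows a level of up to 0.794 there.

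Many loci of an anticodon had similar counts, with a few far below them. The 12 SerAGA and SerTGA loci with over 400 counts in FBS-1 (9 and 3 loci, a set chosen after their values were seen) ran from 467 to 570 counts in FBS-1, while in SBI-dFBS-2 they ran from 224 to 275, in UC-dFBS-1 from 239 to 304 and in UF-dFBS-1 from 355 to 466. The variance over the 12 loci was 1.99, 1.16, 2.16 and 2.57 times the mean in those samples, where counting alone gives a value near 1. These loci held 97.4% of Ser counts in Sigma FBS and 57.5% in Gibco FBS, and the other 15 Ser loci ran from 0 to 38 counts in FBS-1. Most lay on chromosome 6, including tRNA147-SerAGA (chromosome 6, 27509554 to 27509635), tRNA145-SerAGA (27521192 to 27521273), tRNA50-SerAGA (27499987 to 27500068), tRNA51-SerTGA (27513468 to 27513549), tRNA172-SerTGA (26312824 to 26312905) and tRNA148-SerTGA (27473607 to 27473688). tRNA35-SerAGA lay on chromosome 17 (8129928 to 8130009) and tRNA11-SerAGA on chromosome 8. The files do not state how reads that match several copies were placed, so a value of 1 such locus is uncertain, and sums over anticodons are the safer unit.

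**Figure D2:**
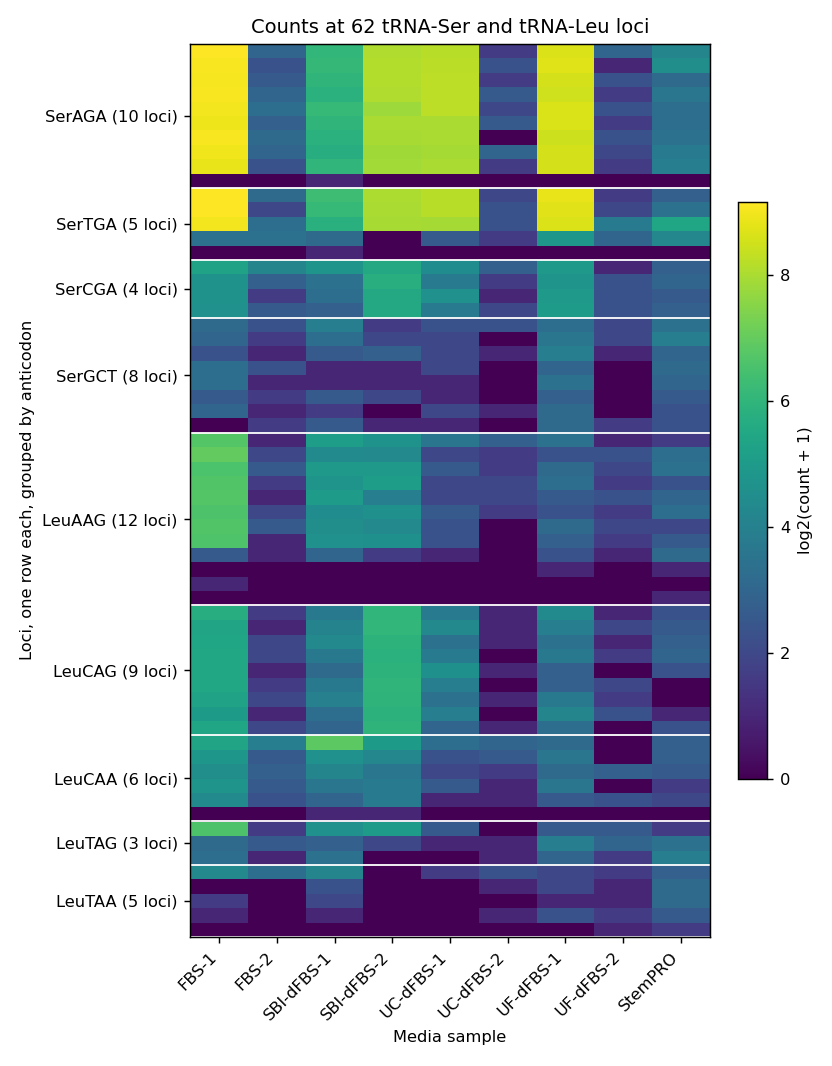
Counts at the 62 member loci (rows, grouped by anticodon and ordered by their summed counts) in the 9 samples (columns), as log2(count + 1). Within FBS-1 the bright SerAGA and SerTGA rows run from 467 to 570 counts, and tRNA2-SerTGA below them had 10.

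tRNA2-SerTGA on chromosome 10 (69524261 to 69524342) stood apart from the 3 SerTGA loci of chromosome 6 in the Sigma and SBI-dFBS samples. Its counts were 10, 5 and 28 in the Sigma FBS, UC-dFBS and UF-dFBS and 10, 2 and 7 in the Gibco ones, with 8 and 0 for the SBI-dFBS lots and 18 for StemPRO. In Gibco FBS the 3 SerTGA loci of chromosome 6 had 8, 3 and 9 counts, against 563, 570 and 511 in Sigma FBS. With 10 counts at tRNA2-SerTGA in both, the wide gap of Sigma FBS was absent from Gibco FBS. A small gap was not detectable at the depth of the Gibco samples. Among LeuAAG and LeuTAG loci, 9 with over 90 counts in FBS-1 (again chosen after their values were seen) ran from 93 to 123 there, with a variance of 0.730 times the mean. With the low loci kept in, leaving out only those with a mean under 1 count, the variance in FBS-1 was 12.3 times the mean over LeuAAG loci, 68.7 times over LeuTAG loci and 177 times over SerTGA loci. The set of 9 held 8 LeuAAG loci, such as tRNA7-LeuAAG on chromosome 5 (180614701 to 180614782), tRNA19-LeuAAG on chromosome 5 (180524474 to 180524555), tRNA78-LeuAAG on chromosome 6 (28956779 to 28956860) and tRNA1-LeuAAG on chromosome 14 (21078291 to 21078372), and 1 LeuTAG locus. That locus, tRNA42-LeuTAG on chromosome 17, had 97 counts in FBS-1, 24 and 32 in the SBI-dFBS samples and 0 to 5 in the other 6. The other LeuTAG loci, tRNA2-LeuTAG (chromosome 14, 21093529 to 21093610) and tRNA27-LeuTAG (chromosome 16, 22207032 to 22207113), had at most 14 counts in any sample. The 9 LeuCAG loci ran from 57 to 66 counts in SBI-dFBS-2 and from 31 to 51 in FBS-1. They included tRNA34-LeuCAG (161411323 to 161411405), tRNA36-LeuCAG (161418741 to 161418823), tRNA38-LeuCAG (161426122 to 161426204) and tRNA42-LeuCAG (161440913 to 161440995), all on chromosome 1.

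tRNA140-LeuCAA on chromosome 6 (27573417 to 27573524), a locus of 108 nucleotides, was the Leu locus with the highest mean over the SBI-dFBS lots, through SBI-dFBS-1 alone; in SBI-dFBS-2 it lay below all 9 LeuCAG loci. Its counts were 114 and 31 in the SBI-dFBS lots, against 40, 9 and 8 in the Sigma FBS, UC-dFBS and UF-dFBS, 14, 7 and 0 in the Gibco ones and 6 in StemPRO. No other LeuCAA locus had more than 28 counts in any sample.

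The gap between the sera was wider for Ser than for Leu. Each of the 3 Sigma samples lay above each of the 3 Gibco samples for Ser (1339, 520 and 90.3 against 18.0, 8.94 and 3.16), a difference of 5.64 on the log2 scale or 49.8-fold (exact two-sided permutation test, p = 0.1, the smallest that 3 against 3 allows). The 3 samples of a supplier are preparations of 1 serum lot, so this and the fits of Sigma against Gibco compare 1 lot with 1 lot, and their p-values measure the spread between preparations. Leu differed by 2.44 on the log2 scale or 5.41-fold (exact p = 0.3), and UF-dFBS-1 at 4.44 lay below FBS-2 at 12.3. All other tRNAs differed by 3.63 or 12.3-fold (exact p = 0.2). The Leu to Ser ratio, which needs no scaling, was 0.227 in Sigma serum before depletion, 0.0565 after ultracentrifugation and 0.0491 after ultrafiltration, against 0.687, 0.787 and 0.908 in Gibco serum. The Sigma samples did not overlap with the Gibco samples, and the mean log2 ratio was 3.20 lower in them (mean -3.54 against -0.34, exact permutation test, p = 0.1, the smallest possible). The SBI-dFBS lots had ratios of 0.654 and 0.265 and StemPRO 0.614.

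**Figure D3:**
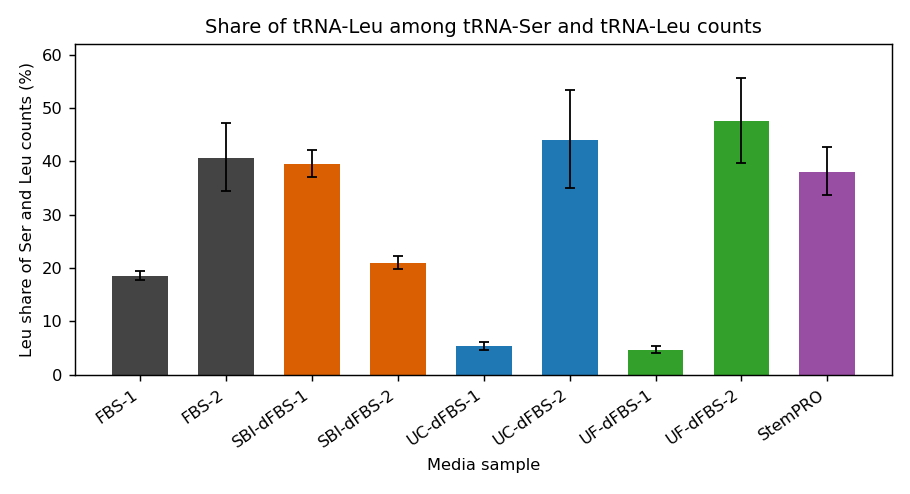
Leu counts as a percentage of Ser and Leu counts in each sample; bars are shares and lines their 95% Wilson intervals. The samples of replicate 1 from Sigma serum stood at 18.5% (FBS), 5.35% (UC-dFBS) and 4.68% (UF-dFBS), and their Gibco counterparts at 40.7%, 44.0% and 47.6%.

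As a share, Leu took 18.5% of the Ser and Leu counts in FBS-1 (95% Wilson interval 17.7 to 19.4), 5.35% after ultracentrifugation of that serum (4.66 to 6.13) and 4.68% after ultrafiltration (4.14 to 5.29). The Gibco shares were 40.7% before depletion (34.5 to 47.2), 44.0% after ultracentrifugation (35.1 to 53.4) and 47.6% after ultrafiltration (39.6 to 55.7). The intervals of the Gibco samples overlap each other, and those after either depletion include equal parts of Ser and Leu. Among the Sigma samples the interval of FBS-1 lay above those of both depleted preparations.

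Anticodon by anticodon, tested with edgeR's quasi-likelihood test on spike-in library sizes with medium as covariate (96 features, adjusted by Benjamini-Hochberg), all 4 Ser anticodons were higher in Sigma than in Gibco serum and 1 of 4 tested Leu anticodons was. Over all features 36.5% were called higher, and of the other tRNA anticodons 19 of 40 were. SerAGA was higher by 6.37 on the log2 scale (SE 0.98, edgeR adjusted p = 0.00273), SerTGA by 5.67 (SE 0.81, edgeR adjusted p = 0.00273), SerCGA by 2.37 (SE 0.42, edgeR adjusted p = 0.00411) and SerGCT by 1.90 (SE 0.46, edgeR adjusted p = 0.0140). LeuCAG was higher by 3.65 (SE 0.82, edgeR adjusted p = 0.0104). LeuAAG at 2.16, LeuTAG at 1.95 and LeuCAA at 1.39 did not pass, and LeuTAA was too low to be tested. The median difference was 4.02 over the Ser anticodons, 2.06 over the Leu anticodons and 1.66 over all features. SeC, the selenocysteine tRNA and the other tRNA with a long variable arm, was higher by 2.92 (SE 0.64, edgeR adjusted p = 0.00967). Without FBS-2 only SerTGA, SerCGA and LeuCAG of the members were called, where 26 of 78 features were. Without UC-dFBS-2 all 8 were, where 42 of 85 features were. SerGCT was also lost without FBS-1 or UC-dFBS-1. DESeq2 called 7 of 8, with LeuAAG and LeuCAA gained, where 54 of 96 features were called higher. Without UC-dFBS-1 7 of 8 passed, with LeuAAG, LeuCAA and LeuTAG gained, where 38 of 89 features passed. The count of Leu anticodons called thus ran from 1 to 4 of 4 with the tool and the libraries. With medium left out of the fit none of the 8 passed.

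Set against the whole library (TMM scaling, which moved the median over all features from 1.66 to -0.30), 3 member anticodons were higher in Sigma serum: SerAGA by 4.42 (SE 0.85, edgeR adjusted p = 4.46e-06), SerTGA by 3.71 (SE 0.64, edgeR adjusted p = 1.05e-06) and LeuCAG by 1.69 (SE 0.49, edgeR adjusted p = 0.00155). On that scale 27.1% of all features were called higher and 35.4% lower. SerCGA at 0.41, LeuAAG at 0.35, LeuTAG at -0.05, SerGCT at -0.08 and LeuCAA at -0.54 did not pass, the last 3 with the sign turned from the spike-in scale. These relative calls fell to 0 without FBS-2 or with medium left out, and to 1 (SerAGA) without UC-dFBS-1 or UC-dFBS-2. Over all features, in either direction, those fits called 3 of 78, 0 of 96, 18 of 89 and 13 of 85.

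By locus, 24 of the 62 members passed the filter of at least 10 counts in 3 samples, but 21 of these passed through the Sigma samples only and so had to differ. The fit called 23 of them higher on the spike-in scale, where 62.1% of tested loci were, and 11 higher relative to the whole library, where 17.9% were, and nothing is read from these counts. Each Sigma sample lay above each Gibco sample at 15 of 27 Ser loci and 3 of 35 Leu loci, against 12.1% of all small ncRNA loci and 123 of 468 other tRNA loci. The 3 Leu loci were tRNA34-LeuCAG, tRNA38-LeuCAG and tRNA42-LeuCAG, named after their values were seen. tRNA147-SerAGA had 542, 292 and 414 counts in the Sigma FBS, UC-dFBS and UF-dFBS against 4, 4 and 1 in the Gibco ones. Its fitted log2 difference was 7.04, with 6.95 at tRNA5-SerAGA (chromosome 6, 26327817 to 26327898) and 6.76 at tRNA47-SerAGA (chromosome 6, 27470818 to 27470899). These were the largest of the members past the threshold and are given as a description, since none of these loci reached 10 counts in a Gibco sample. Relative to the whole library, tRNA2-SerTGA, which passed the filter with counts from both sera, was the 1 member called lower, by 2.81 on the log2 scale (SE 1.19, edgeR adjusted p = 0.0477), where 21.4% of tested loci were called lower. It was not called without the filter, nor in any fit that left out 1 sample, where 0 members were called lower on that scale. Without FBS-2 and without UC-dFBS-2, 0 of 23 and 0 of 24 tested members were called. Without FBS-1 or UF-dFBS-1 this locus did not pass the filter. Without FBS-1, UC-dFBS-1 or UF-dFBS-1 only 2, 3 and 2 members passed the filter at all, of which 1, 1 and 2 were called on the spike-in scale and 0, 0 and 1 relative to the library, so that these fits left most loci untested.

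After ultracentrifugation Ser stood lower by a like factor in both sera, and Leu by unequal ones. UC-dFBS held 0.388 of the Ser level of FBS in Sigma serum and 0.497 in Gibco serum. For Leu the ratios were 0.0967 in Sigma serum and 0.570 in Gibco serum, and for all other tRNAs they were 0.681 and 2.04. LeuAAG had the widest gap, with 0.0350 of its FBS level left in Sigma serum and 0.894 in Gibco serum. In Gibco serum LeuAAG rested on 22 counts before and 18 after ultracentrifugation, so a loss of moderate size was not detectable at this depth. The 9 anticodons were each below FBS in both sera, which was also seen at 38 of 62 member loci against 24.3% of all loci. Of the 468 other tRNA loci, 154 showed it.

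**Figure D4:**
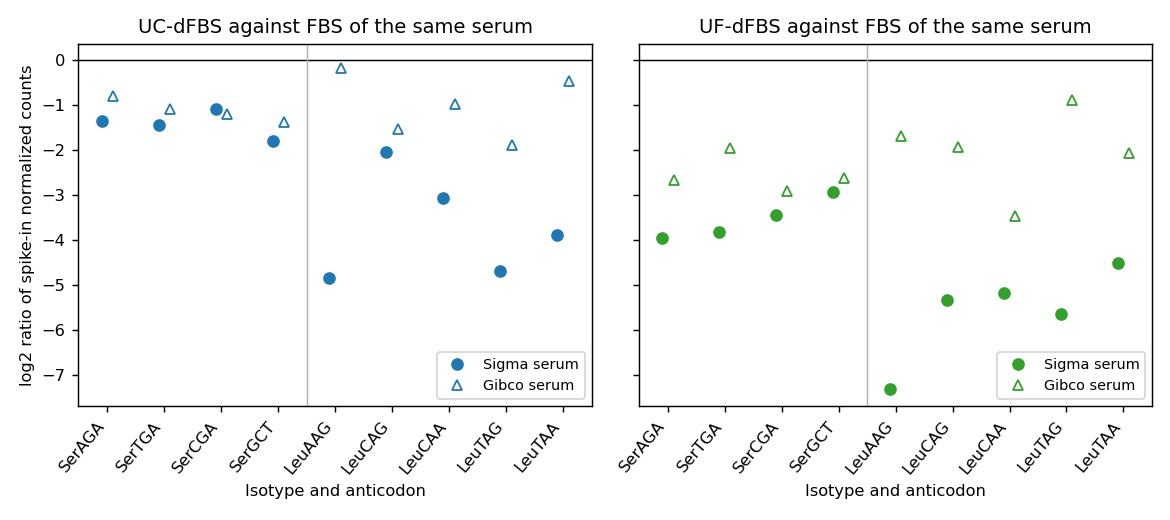
log2 ratio of spike-in normalized counts (vertical axis) of UC-dFBS (left) and UF-dFBS (right) to FBS of the same serum, for each anticodon; filled circles are Sigma serum, open triangles Gibco serum, each 1 sample over 1 sample, and the line at 0 means no difference. The Ser anticodons lay close together in UC-dFBS, between -0.80 and -1.80, while LeuAAG was at -4.84 in Sigma serum and -0.16 in Gibco serum.

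Over samples, neither isotype passed a test in UC-dFBS. The mean level of the 2 samples was 0.390 ± 0.756 of the FBS mean for Ser and 0.115 ± 0.180 for Leu (SD propagated from both groups, n = 2 and 2). This SD treats the media as independent although both come from the same sera, so it includes the gap between the sera. The log2 means were lower by 1.19 and 2.09 (exact two-sided permutation tests, p = 0.667 each, where 2 against 2 cannot go below 0.333). In edgeR's fit over all 8 serum samples, 41 members were tested and none was called in UC-dFBS (0.0% of the 363 loci tested). Of the members 5 had an unadjusted p under 0.05, and DESeq2 called none. With the serum as a block, 0 of 29 tested members were called against 2.48% of the 322 tested loci lower, and without the filter 3 of 58 against 1.19%. In the same fit over anticodons (added after seeing the data) 0 of 9 were called, against 2.59% of 116 features. Without FBS-2 the median over the 9 was -2.54, against -0.72 over all features, and without UC-dFBS-2 it was -1.72, against -1.25. On both scales each of the 9 stood below 0. On the spike-in scale LeuTAG was at -3.84 (edgeR adjusted p = 0.0565), LeuAAG at -3.42 (edgeR adjusted p = 0.169), LeuTAA at -2.13, LeuCAA at -2.12 and LeuCAG at -1.84, against -1.11 for SerAGA, -1.29 for SerTGA, -1.13 for SerCGA and -1.62 for SerGCT. The median was -2.13 over Leu, -1.21 over Ser and -0.75 over all features. SeC fell by 3.78 on the log2 scale (SE 0.71, edgeR adjusted p = 0.00527), a call that was lost under TMM.

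UF-dFBS held the least of both isotypes of the serum media from the same serum, on the spike-in scale. UF-dFBS held 0.0675 of the Ser level of FBS in Sigma serum and 0.176 in Gibco serum, and 0.0146 and 0.233 of the Leu level. The other tRNAs stood at 0.158 and 0.0528, so that the ratios of both isotypes were below those of other tRNAs in Sigma serum and above them in Gibco serum. The Gibco ratios rest on 76 Ser and 69 Leu counts in UF-dFBS-2. Their levels of 3.16 and 2.87 lay near the 2.52 and 1.55 of the serum-free StemPRO, while other tRNAs in UF-dFBS-2 were at 86.9 times the StemPRO level. More of the isotypes being kept in Gibco serum therefore cannot be read from these ratios. LeuAAG was again the extreme, with 0.00626 of its FBS level in Sigma serum against 0.310 in Gibco serum. The mean of the 2 samples was 0.0689 ± 0.131 of the FBS mean for Ser and 0.0231 ± 0.0309 for Leu (SD, n = 2 and 2, again with the gap between the sera included). Leu did not overlap between the media (4.44 and 2.87 against 304 and 12.3) and its log2 mean was lower by 4.10 (exact permutation test, p = 0.333, the smallest possible). Ser was lower by 3.20 with overlap, since UF-dFBS-1 at 90.3 lay above FBS-2 at 18.0 (exact permutation test, p = 0.667).

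By locus, both UF-dFBS samples lay below both FBS samples at 22 of 35 Leu loci and 8 of 27 Ser loci, against 25.9% of all loci. Of the 468 other tRNA loci, 146 did so. The 1 member above both FBS samples in both UF-dFBS samples was tRNA4-LeuTAA on chromosome 11, with 3 and 1 counts against 0 and 0, where 2.79% of all loci were. UF-dFBS lay below FBS within each serum at 49 of 62 members, against 36.6% of all loci and 269 of 468 other tRNA loci. In the fit over all 8 serum samples none of the 41 tested members was called (0.0% of the 363 loci tested), and 20 had an unadjusted p under 0.05. DESeq2 with spike-in factors called 23 of the 41 lower, where 135 of the 363 loci were. DESeq2 with its own size factors called 0 members, where 1 of the 363 loci was called. With the serum as a block, 28 of 29 tested members fell, where 66.1% of the 322 tested loci did, and without the filter 42 of 58 fell, where 23.6% of 1176 did. The largest log2 differences were -6.10 at tRNA36-LeuCAG, -5.87 at tRNA140-LeuCAA and -5.79 at tRNA78-LeuAAG, given as a description. tRNA140-LeuCAA passed the filter through the FBS samples only (40 and 14 counts, against 8 and 0 in UF-dFBS), which favoured a fall. tRNA36-LeuCAG passed it through FBS-1 and UC-dFBS-1 only, with 44 and 23 counts. Both tRNA36-LeuCAG and tRNA78-LeuAAG had 1 count in FBS-2, so their falls rest on Sigma serum. The 1 member not called was tRNA148-SerTGA (edgeR adjusted p = 0.0541).

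In the anticodon fit with the serum as a block all 9 member anticodons fell in UF-dFBS on the spike-in scale, where 71.6% of features did, but under TMM scaling none was called and SerTGA, SerGCT, SerCGA, SerAGA and LeuCAG turned to the higher side. The log2 differences on the spike-in scale were -5.24 for LeuAAG (SE 1.39, edgeR adjusted p = 0.00361), -4.45 for LeuCAA (edgeR adjusted p = 9.77e-05), -3.60 for LeuTAG, -3.58 for LeuCAG and -3.47 for LeuTAA. Among Ser anticodons they were -3.31 for SerAGA (SE 1.16, edgeR adjusted p = 0.0186), -3.18 for SerCGA, -2.88 for SerTGA and -2.78 for SerGCT. The median was -3.60 over Leu, -3.03 over Ser and -3.04 over the other tRNA anticodons, of which 22 of 44 were called lower. Over all 116 features it was -3.90, with -2.81 over 744 features when no filter was used and -0.61 under TMM. SeC fell by 6.55 (SE 0.77, edgeR adjusted p = 1.54e-05), from 91 counts in Sigma FBS and 28 in Gibco FBS to 15 and 0, and this call too was lost under TMM. Of the intron-bearing anticodons, ArgTCT stood at -0.67 and TyrGTA at -1.19 and neither was called, while IleTAT was too low to be tested. Without FBS-1 the median over the 8 tested member anticodons was -2.55, against -3.22 over all features. Without UF-dFBS-1 it was -2.73 over 8 tested members, against -4.33 over all features.

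Between the commercially depleted SBI-dFBS and FBS no difference was detected for either isotype, and the SBI-dFBS lots lay far apart. SBI-dFBS-2 held 8.98 times the Ser level and 3.64 times the Leu level of SBI-dFBS-1, with 11.9 times for LeuCAG and 0.969 times for SerGCT. All other tRNAs were 3.28 times as high in SBI-dFBS-2. The mean of both lots was 0.703 ± 1.25 of the FBS mean for Ser and 0.916 ± 1.40 for Leu (SD, n = 2 and 2), whereas the means of the log2 levels were higher by 0.88 and 0.96 (exact permutation tests, p = 1 each), so that mean and log mean differed in sign. None of the 41 tested members was called by edgeR (0.0% of the 363 loci tested) or by DESeq2, and 0 had an unadjusted edgeR p under 0.05. By level, tRNA66-LeuCAA (chromosome 1) was the 1 member above both FBS samples in both lots, with 1 count in each lot, and tRNA2-SerTGA and tRNA10-SerGCT (chromosome 15) were the 2 below, against 9.85% and 7.49% of all loci.

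In StemPRO the member counts were few and yet formed a larger share of the tRNA reads than in the serum media. The levels of 2.52 for Ser and 1.55 for Leu were 0.371% and 0.978% of the FBS means, and other tRNAs stood at 0.00910%. Against UF-dFBS-2, the lowest serum medium, Ser was at 0.796, Leu at 0.538 and SerGCT at 1.46 times the level, while other tRNAs were at 0.0115 times. The isotypes together took 9.56% of tRNA counts in StemPRO (439 of 4590 counts, 95% Wilson interval 8.75 to 10.4). In Sigma serum their share was 0.210% before depletion, 0.103% after ultracentrifugation and 0.0766% after ultrafiltration, in Gibco serum 0.0479%, 0.0124% and 0.180%, and in the SBI-dFBS lots 0.0332% and 0.0695%. The StemPRO share was thus 45.6 times that of FBS-1, the highest of the serum media, and 773 times that of UC-dFBS-2. With 1 sample this difference has no replicate check. Other isotypes shifted as well, so the larger share was not particular to the members. Asn had 21 counts in FBS-1 and 246 in StemPRO (19th and 9th of 21 isotypes). His had 2415917 and 60 (1st and 15th). Ser was 8th in both samples, and Leu 12th and 10th.

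**Figure D5:**
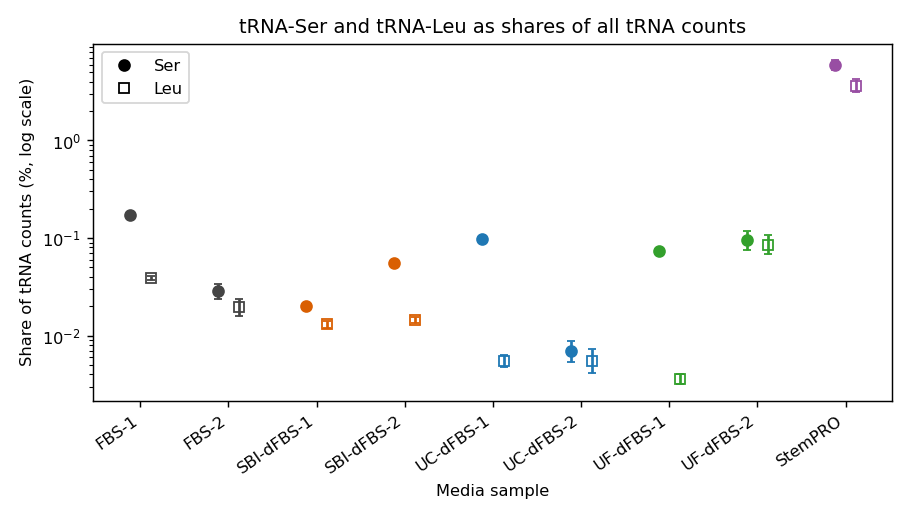
Ser (filled circles) and Leu (open squares) as percentages of all tRNA counts in each sample on a log axis, with 95% Wilson intervals. Both together took 9.56% in StemPRO and between 0.0124% and 0.210% in the 8 serum media.

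The study's methods used a level above 1 as detection. Applied here to either sample of a medium, a rule chosen for this count, it gave regular FBS 50 of the 62 members, the SBI-dFBS lots 43, UC-dFBS 27, UF-dFBS 12 and StemPRO 0. The 12 of UF-dFBS were all Ser loci, and 0 of 35 Leu loci passed there, against 27 for regular FBS, 25 for the SBI-dFBS lots and 11 for UC-dFBS. Of the 468 other tRNA loci, regular FBS had 260 by this rule, the SBI-dFBS lots 273, UC-dFBS 216, UF-dFBS 181 and StemPRO 2. In UC-dFBS the share was thus 43.5% of the members and 46.2% of the other tRNA loci. The threshold corresponds to more counts where the spike-in factor is larger, so detection in UF-dFBS and StemPRO needed more counts than in FBS. The 1 member detected in a depleted medium and not in FBS was tRNA7-SerGCT on chromosome 17 (8090184 to 8090265), with 0.553 and 1.59 in the SBI-dFBS samples against 0.826 and 0.134 in FBS-1 and FBS-2. These levels rest on 5, 6, 4 and 1 counts.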

How the data were processed

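Small ncRNA counts of 9 EV isolates were used. Per the labels and methods, the authors trimmed reads with cutadapt (1.11), collapsed them by unique molecular identifier, mapped them with Bowtie2 (2.2.2) to GRCh37 and small RNA databases, and deposited counts per locus and spike-in normalized counts (signal: the count over the slope of a spike-in fit); each deposited factor was recovered from both tables. The placement of reads with several matches, and whether counts used strand, is not given in the sources used here. The members, lists and tests were chosen with earlier results of these data known.

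Counts were tested with edgeR (4.0.16) quasi-likelihood fits over the whole table (at least 10 counts in 2 samples for media or 3 for sera, Benjamini-Hochberg adjusted p below 0.05), on spike-in factors as library sizes or on TMM. DESeq2 (1.42.0), no filter, the serum as block and leaving out each sample were alternatives. Fits were tested on simulated data. Totals were compared by exact permutation tests, shares by 95% Wilson intervals (scipy 1.17.1). P-values measure only the spread between these samples. UC-dFBS and UF-dFBS were made from the sera of FBS-1 and FBS-2, so numbers pair these samples: deviations from group means correlated over the 363 loci with at least 10 counts in 2 samples by 0.824 (FBS and UC-dFBS), 0.665 (FBS and UF-dFBS) and 0.648 (UC-dFBS and UF-dFBS).

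Named loci were the 3 highest of each isotype per medium, up to 3 per direction and comparison past the threshold (left out for the relative fit where a locus passed the filter through Sigma samples only), and loci detected in a depleted medium but not in FBS. Anticodons were matched by name to bovine RefSeq tRNA genes (9 of 9), and no sequence was used here. Depth of the members was 109 to 7958 counts.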

Additional observations from a re-analysis of the deposited data

Results flagged for a closer look

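The change of the Leu to Ser ratio with depletion had a different sign in each serum, although the Gibco change was within counting error. In Sigma serum the log2 ratio of Leu to Ser changed by -2.006 from FBS to UC-dFBS, and in Gibco serum by 0.1968. In UF-dFBS the change was -2.209 in Sigma serum and 0.4031 in Gibco serum. Each value is 1 sample over 1 sample, and the difference between the sera was not tested. The Gibco values rest on 48 Leu and 61 Ser counts in UC-dFBS-2 and on 69 and 76 in UF-dFBS-2, and the 95% intervals of the Gibco Leu shares overlap each other, so no change was detectable there.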

How the results depend on the processing

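Calls moved with the scaling, the tool, the filter, the serum block and the samples kept. Of the member loci, UF-dFBS against FBS gave 0 calls without and 28 with the replicate block (serum), where 213 of 322 loci were called. With the block and no filter there were 42 (278 of 1176 loci). DESeq2 gave 23 on spike-in factors (135 of 363 loci) and 0 on its own factors (1 of 363). UC-dFBS gave 3 with the block and no filter (14 of 1176 loci). Leaving the medium out of the fit (no replicate block) moved the Sigma against Gibco calls from 23 to 0 loci and from 5 to 0 anticodons, and the relative calls from 12 to 7 loci and from 3 to 0 anticodons. Over all 280 loci and 96 features the calls moved from 174 to 0 and 35 to 0, and the relative calls from 110 to 38 and 60 to 0. The block changed no other call of a comparison as a whole. The within-serum anticodon calls in UC-dFBS were 1 (no filter, 5 of 744 features) and 3 (DESeq2, 11 of 116 features) in place of 0. In UF-dFBS they were 0 in place of 9 under TMM, where 13 of 116 features were called. There LeuCAG stood at 0.088, SerAGA at 0.15, SerCGA at 0.29, SerGCT at 0.60 and SerTGA at 0.65, all reversed in sign. As a share of all tRNA counts the log2 difference of the summed isotypes from FBS reversed to -1.06 in SBI-dFBS and to 0.23 in UF-dFBS. At a threshold of 0.1 the members detected were 54 in UC-dFBS, 49 in UF-dFBS and 9 in StemPRO, and at 5 they were 12 in UC-dFBS.

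Leaving out 1 sample at a time, Sigma against Gibco calls ranged from 1 to 23 of 2 to 24 tested loci and from 3 to 8 anticodons. Over the whole table these fits called 10 to 185 of 192 to 277 loci and 24 to 42 of 76 to 95 anticodon-level features. Relative calls ranged from 0 to 14 of 2 to 24 tested loci and from 0 to 4 anticodons, against 11 to 99 loci and 3 to 61 features over the whole table. Without a Sigma sample few loci passed the filter. Within serum the median log2 difference over the member anticodons ranged from -2.54 to -0.80 (UC-dFBS) and from -4.57 to -2.55 (UF-dFBS). LeuCAG relative to the library ranged from -0.43 (without UC-dFBS-2) to 2.92. The log2 total of Ser and Leu against FBS ranged from -1.99 to 3.77 in SBI-dFBS, from -4.13 to 1.63 in UC-dFBS and from -6.10 to -0.34 in UF-dFBS, and the log2 Leu to Ser ratio from -0.72 to 0.87, from -2.80 to 1.00 and from -3.01 to 1.20. For Sigma against Gibco the total stayed between 3.996 and 6.05 and the ratio between -3.90 and -2.80. A lone sample left in a medium was assumed to vary like the others. Why a setting moved a result was not tested. The 109 to 226 member counts of the Gibco samples limit every comparison within that serum.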

Other observations

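Bovine RefSeq lists more tRNA genes for some of these anticodons than the human loci that were counted. It holds 19 SerAGA, 22 SerGCT, 5 SerCGA and 5 SerTGA genes, and 9 LeuAAG, 10 LeuCAA, 8 LeuCAG, 9 LeuTAA and 4 LeuTAG genes. SerGCT, with the most bovine genes of these, had 49 counts in FBS-1, and SerAGA had 4671. A further 125 bovine entries are SerGGA, 3 SerACT and 1 LeuGAG, none of which is an anticodon of the members, so they were not analysed here.

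Between suppliers the intron-bearing anticodons stood at 4.11 for ArgTCT (edgeR adjusted p = 0.00367), 1.39 for LeuCAA and 0.23 for TyrGTA on the log2 spike-in scale, so LeuCAA lay between the other two, and only ArgTCT of the 3 was called.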
